A study of Mus musculus with 6 samples.

Results

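Epithelial cells are held together by adherens junctions, tight junctions and desmosomes. Adherens junctions are built on classical cadherins, tight junctions on claudins and occludin anchored by zonula occludens scaffolds, and desmosomes on desmogleins and desmocollins that plakoglobin, plakophilins and desmoplakin tie to keratin filaments. The transcription factors Grhl and Ovol keep epithelial genes on, whereas the Snail, Zeb and Twist families repress them in the epithelial-mesenchymal transition. Mouse embryonic stem cells (mESCs) grow as tight colonies joined by E-cadherin, so they carry many of these transcripts. The genes described here were taken by name: protein-coding genes called Cdh, Cldn, Dsg, Dsc, Dsp, Pkp, Jup, Ocln, Tjp, Epcam, F11r, Marveld, Crb3, Grhl, Ovol, Snai, Zeb or Twist in GENCODE M21. This gave 82 genes of 53390 genes with transcripts in the files. They comprised 5 type I classical cadherins, 13 type II classical cadherins, 5 other cadherins, 9 desmosomal cadherins, 6 desmosome and junction plaque proteins, 23 claudins, 5 other tight junction membrane proteins, 3 zonula occludens scaffolds, Epcam, 5 epithelial transcription factors and 7 epithelial-mesenchymal repressors.

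RNA was measured by poly(A)-selected, stranded sequencing of TKO mESCs, a single line from male J1 cells of the 129S4/SvJae strain that lacks functional Dnmt1, Dnmt3a and Dnmt3b. Both groups carried these knockouts and were grown without feeder cells on gelatin. The 3 TKO-serum samples came from medium with 15% FCS and 500 U/ml LIF. The 3 TKO-2i samples came from serum-free N2B27 medium with 1 µM PD0325901, a MEK inhibitor, 3 µM CHIR99021, a GSK3 inhibitor, and 1000 U/ml LIF. The media therefore differed in serum, base medium and LIF dose as well as in both inhibitors, and the parts of these in any difference below cannot be told apart. The labels number the replicates within each condition as biological; as they came from a single line, p-values measure the spread between these samples. Estimated counts summed to 46228700, 44180642 and 43896549 in the TKO-2i libraries and to 38274042, 51932739 and 44827609 in the TKO-serum libraries. A gene listed with a count of 0 could lie as high as 3 counts, which is 0.0564 to 0.0778 CPM (counts scaled to library size) depending on the library, for counting error only. Replicates of a condition correlated at 0.986 or more across genes, and no pair from different conditions exceeded 0.932.

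The targeted genes still gave reads, and no wild-type sample was compared here, so transcript levels could not check the knockout. Dnmt1 stood at 29.1, 34.6 and 29.3 TPM (a level scaled for transcript length and library total) in TKO-2i and at 25.7, 28.6 and 27.9 TPM in TKO-serum. Dnmt3a had 4.30, 5.19 and 4.54 TPM in TKO-2i against 21.3, 23 and 22.7 TPM in TKO-serum. Dnmt3b had 6.71, 9.53 and 8.49 TPM in TKO-2i against 18.8, 20.9 and 20.7 TPM in TKO-serum. Of these and their partner Dnmt3l, 3 of 4 were lower in TKO-2i (75%, against 30.6% of all genes tested). Dnmt3l fell from a mean of 498.5 to 46.9 TPM. The 8 markers of mESCs were abundant in every library, with summed levels of 4986.4 to 5499.9 TPM in TKO-2i and 6013.2 to 6344.7 TPM in TKO-serum, Dppa5a being the most abundant. Of these 8 genes, 2 were higher in TKO-2i (25%, against 31.9% of all genes tested), Nanog (log2 fold change 0.60 ± 0.06, SE) and Esrrb (0.33 ± 0.04). Another 4 were lower (50%, against 30.6%), among them Utf1 (-1.33 ± 0.08) and Sox2 (-0.41 ± 0.05). Nanog lies on chromosome 6, where the median over 866 tested genes was 0.41 in log2.

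To ask how the junction programme of methylation-deficient mESCs differed between 2i and serum culture, all genes were tested together by edgeR, and a gene was called at a Benjamini-Hochberg adjusted p under 0.05. Junction genes and their regulators were lower in TKO-2i more often than they were higher. Epcam, P-cadherin (Cdh3), Cldn6, Grhl1, Grhl2, Snai3 and Twist1 all fell by more than 2-fold, whereas the main cadherin of mESCs, Cdh1, rose by 1.21-fold and the desmosomal cadherin Dsg2 by 1.63-fold. Of the 82 genes, 50 had enough counts to be tested; 25 of these 50 (50%) were lower in TKO-2i, against 30.6% of the 18177 genes tested, and 11 of 50 (22%) were higher, against 31.9% of all genes tested. The median log2 fold change was -0.24 over the 50 and 0.01 over all genes tested. In limma on log2(TPM + 0.1) the split was 6 higher and 26 lower, and over all 18177 genes that fit called 4214 higher and 5829 lower.

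Many of the falls were in genes of low level. Past 4-fold (a log2 fold change beyond 2 in size), 13 of the 50 were lower in TKO-2i, against 7.10% of all genes tested, and 9 of these 13 stayed under 1 TPM in both conditions. This count was 20 with no filter on counts, 4 with at least 10 counts in every sample, and 2 and 6 in limma on log2(TPM + 1) and log2(TPM + 0.1). A gene of low level passes the count filter more readily if 1 condition lifts it, so their number is a description only. No member was past 4-fold higher in edgeR, 0 at an unadjusted p under 0.05 and 0 in DESeq2, against 2.09% of all genes tested. Among the 34 members with a mean of at least 1 TPM in a condition, 14 were lower (41.2%, against 28.7% of all genes at that level) and 8 were higher (23.5%, against 36.9%), and the median log2 fold change was -0.07 beside 0.06 for all genes at that level. The 32 untested members never exceeded 0.349 TPM or 12 counts in a library. Replicates were close: over the 34 members the median coefficient of variation in CPM was 7.42% in TKO-2i and 4.64% in TKO-serum.

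**Figure D1:**
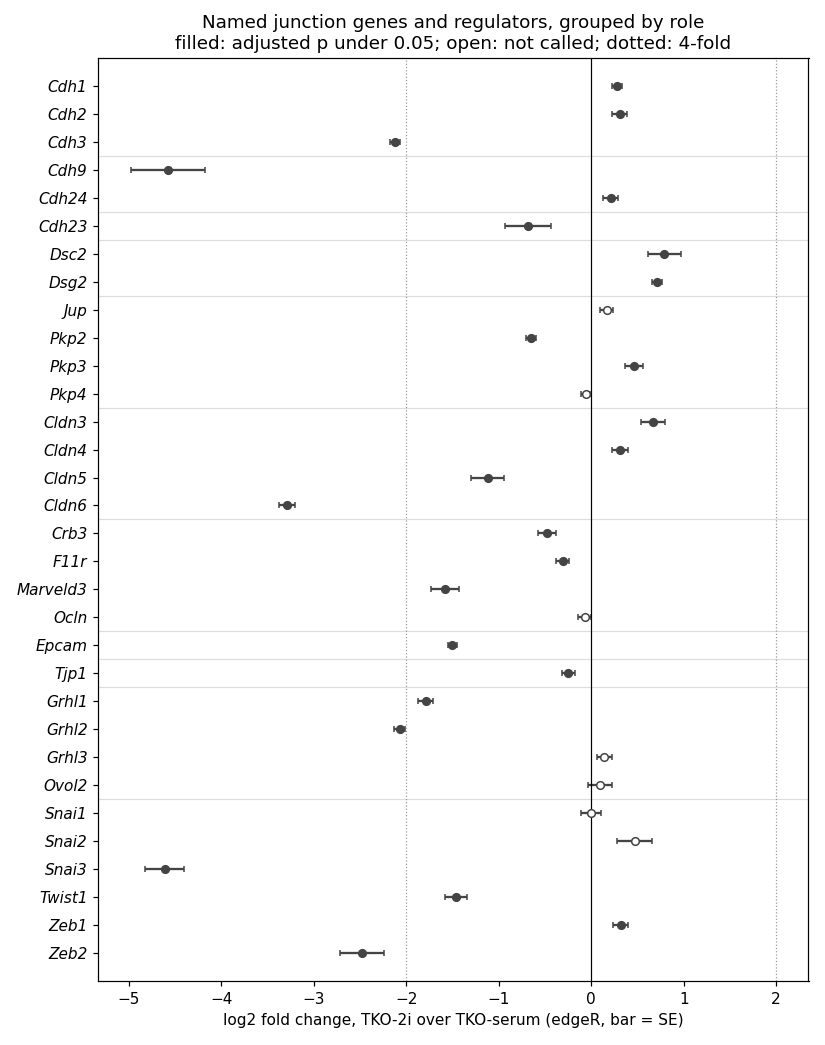
Log2 fold change of named and tested members between TKO-2i and TKO-serum (horizontal axis, edgeR estimate with SE bars), grouped by role from cadherins at the top to repressors at the bottom, with filled points for called genes. Cdh9, Snai3 and Cldn6 lie farthest to the left, at -4.58, -4.61 and -3.29, and no member lies beyond the dotted 4-fold line on the right.

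Markers of other cell types differed between the cultures. Their counts of calls stand beside 31.9% higher and 30.6% lower over all genes tested. Of 10 primitive and visceral endoderm markers, 8 were tested, 7 were lower in TKO-2i and 0 were higher. Their summed level was 4.90, 6.03 and 5.23 TPM in TKO-2i against 18.9, 22.3 and 24.5 TPM in TKO-serum, with Dab2 the most abundant in TKO-serum (6.72 TPM, against 0.288 TPM in TKO-2i) and Cubn falling from 2.60 to 0.0202 TPM. Of 5 neural markers, 4 were lower and Nes was higher; their sum was 88.0 to 91.3 TPM in TKO-2i and 139.6 to 143.3 TPM in TKO-serum, mostly Tubb3, while Neurod1 fell from 6.42 to 0.115 TPM and Pax6 from 11.9 to 1.94 TPM. Primitive streak and mesoderm markers went the other way in sum, with 17.3, 17.5 and 22 TPM in TKO-2i against 5.52, 5.64 and 5.85 TPM in TKO-serum. Brachyury (T) made up most of that sum in TKO-2i, at 11.8 ± 3.39 TPM (SD, n = 3), with Gsc next; 2 of the 8 genes were higher and 3 lower, Hand1 and Mesp2 among the latter. Trophectoderm markers summed to 45.3 to 49.0 TPM in TKO-2i and 32.1 to 34.0 TPM in TKO-serum, Tfap2c being the most abundant; 4 of 8 were higher, Cdx2 and Eomes by the most, and 3 lower, Gata3, Hand1 and Krt7.

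Fibroblast markers were low in both conditions. Their sum was 6.15 to 7 TPM in TKO-2i and 7.58 to 7.93 TPM in TKO-serum, with Thy1 the most abundant, and 2 of 9 stayed under 0.1 TPM in every library; 1 was higher (Pdgfrb) and 3 were lower, among them Pdgfra. Surface ectoderm and keratinocyte markers summed to 11.7 to 12.6 TPM in TKO-2i and 7.16 to 8.33 TPM in TKO-serum, with Krt10 and Tfap2a making up most; 1 of 7 was higher, Tfap2a, and 1 lower. Endothelial markers summed to 57.4 to 68.5 TPM in TKO-2i and 34.3 to 35.7 TPM in TKO-serum, most of it Pecam1, which mESCs express themselves; 1 of 5 was higher and 2 lower, Tek (-1.89 ± 0.09) among them, and 1 of the 5, Cdh5, is also a member here. In bulk RNA, fewer cells of a type and less RNA per cell cannot be told apart, and the part of these cell types in the junction gene differences was not tested.

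Among type I classical cadherins, which bind like molecules on neighbouring cells through catenins, E-cadherin (Cdh1) dominated in both conditions and, of the members above 1 TPM, P-cadherin (Cdh3) differed most; Cdh15, under 1 TPM in both conditions, was also lower. Cdh1 (chr8:106603351-106670246, GRCm38) stood at 116.4, 134.9 and 116.0 TPM in TKO-2i and at 101.2, 114.4 and 107.2 TPM in TKO-serum. In CPM, 448.8, 464.4 and 452.1 in TKO-2i lay above 371.6, 384.4 and 370.9 in TKO-serum without overlap (log2 fold change 0.28 ± 0.05, SE, adjusted p = 0.00078), and its TPM values did not overlap either, but limma on log2(TPM + 1) did not call it (0.18, adjusted p = 0.075). Cdh3 lies on the same strand 46053 bases before Cdh1. It fell from 19.6, 20.7 and 20.5 TPM in TKO-serum to 4.17, 4.68 and 4.24 TPM in TKO-2i, a 4.35-fold difference with no overlap (log2 fold change -2.12 ± 0.05, adjusted p = 2.5e-08). These neighbours thus differed in opposite directions. N-cadherin (Cdh2), the cadherin classically gained by mesenchymal cells, was low throughout: 4.56, 5.03 and 4.56 TPM in TKO-2i against 4.23, 4.23 and 3.74 TPM in TKO-serum (log2 fold change 0.31 ± 0.08, adjusted p = 0.008; 0.17 with adjusted p = 0.15 by limma on log2(TPM + 1)).

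The summed level of the type I cadherins was about equal, 131.9 ± 11.4 TPM (SD, n = 3) in TKO-2i and 133.0 ± 7.18 TPM in TKO-serum, but its make-up differed. Cdh1 held 92.7, 93.0 and 92.7% of it in TKO-2i and 80.3, 81.5 and 80.8% in TKO-serum. Cdh3 held 3.32, 3.23 and 3.39% in TKO-2i and 15.6, 14.8 and 15.4% in TKO-serum. The share of Cdh3 was thus lower in each TKO-2i library than in any TKO-serum library. Cdh2 amounted to 3.92, 3.72 and 3.94% of the Cdh1 level in TKO-2i and 4.18, 3.70 and 3.49% in TKO-serum. This ratio of the mesenchymal to the epithelial cadherin differed by 0.03 on the log2 scale (exact two-sided permutation p = 0.7 over 6 samples, with 0.1 the smallest p this design allows), less than its spread between replicates.

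The remaining cadherins were scarce. Of 13 type II classical cadherins, which include vascular and neural adhesion molecules, 7 were tested and 1 was higher in TKO-2i. The 5 that were lower (71.4%, against 30.6% of all genes tested) were all past 4-fold, against 7.10% of all genes tested. These 5 (Cdh5, Cdh6, Cdh9, Cdh10 and Cdh20) stayed under 1 TPM in both conditions. None of them was tested with at least 10 counts in every sample, so their number is a description only. Cdh24 was the only type II member above 1 TPM, at 2.87, 3.37 and 3.11 TPM in TKO-2i and 2.68, 3.07 and 3.06 TPM in TKO-serum. Its call (log2 fold change 0.21 ± 0.08, adjusted p = 0.043) was lost in most alternatives, for example in DESeq2 (0.19, adjusted p = 0.14). Cdh9 gave 3, 1 and 5 estimated counts in TKO-2i, near the floor, against 75, 103 and 57 in TKO-serum (log2 fold change -4.58 ± 0.40, adjusted p = 1.9e-05). Of the 5 other cadherins only Cdh23, a cadherin of hair cell tip links, was tested. Its TPM values overlapped and changed order with the scale: in CPM it was lower in TKO-2i (log2 fold change -0.68 ± 0.25, adjusted p = 0.041), but with counts scaled from TPM the estimate was 0.12 (adjusted p = 0.89). Cdh16 had at most 5 counts in any library and no fold is given.

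Of the 9 desmosomal cadherins, only Dsg2 and Dsc2 were tested, and both were called higher in TKO-2i, beside 31.9% of all genes tested. Dsg2, the desmoglein of simple epithelia, had 15.5, 18.8 and 14.5 TPM in TKO-2i and 9.52, 10.8 and 10.4 TPM in TKO-serum. Its log2 fold change was 0.71 ± 0.05 (adjusted p = 8.9e-06). Its usual partner Dsc2 was far lower, at 0.929, 0.927 and 0.619 TPM against 0.417, 0.510 and 0.627 TPM; it was called higher in CPM (0.79 ± 0.18, adjusted p = 0.0042) but not by limma on log2(TPM + 0.1) (0.58, adjusted p = 0.054). Both lie in the desmosomal cadherin cluster of chromosome 18. The other 7 genes of that cluster, the desmogleins and desmocollins of stratified epithelia, had too few counts to be tested, and the near-identical Dsg1 copies cannot be told apart at this level. Dsg2 held 94.7 ± 0.695% (SD, n = 3) of the family's TPM in TKO-2i and 94.4 ± 0.849% in TKO-serum, so the family sum rose from 10.9 ± 0.762 to 17.2 ± 2.34 TPM with no shift in make-up beyond the replicate spread.

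The cytoplasmic plaque that links these cadherins to keratins included abundant genes in both media, and its called genes went both ways. Of 6 plaque genes, 5 were tested, 1 was higher (20%, against 31.9% of all genes tested), 1 was lower (20%, against 30.6%) and 3 were not called. Plakoglobin (Jup), shared by desmosomes and adherens junctions, had 84.5, 94.0 and 88.5 TPM in TKO-2i and 82.2, 87.3 and 85.6 TPM in TKO-serum (log2 fold change 0.17 ± 0.07, adjusted p = 0.05, just outside the threshold). It lies on chromosome 11, where the median log2 fold change of 1399 tested genes was 0.26. Jup passed the threshold when TKO-2i replicate 2 was left out (0.24, adjusted p = 0.0012) and with counts scaled from TPM (0.16, adjusted p = 0.021). With a replicate block in edgeR, Jup (0.17, adjusted p = 0.0066) and Dsp were called too. Plakophilin 4 (Pkp4), a plakophilin relative also found at adherens junctions, had a log2 fold change of -0.06 ± 0.05 (adjusted p = 0.28) at 44.9 ± 4.83 TPM in TKO-2i and 50.4 ± 2.82 TPM in TKO-serum. Plakophilin 2 (Pkp2), the plakophilin of simple epithelia and heart, fell from 39.9, 42.1 and 41.2 TPM in TKO-serum to 23.6, 25.6 and 24.1 TPM in TKO-2i (log2 fold change -0.65 ± 0.05, adjusted p = 9e-06). Dsg2 and Pkp2, partners in the same structure, therefore differed in opposite directions.

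Plakophilin 3 (Pkp3) rose at the gene level, from 5.36, 5.90 and 6.49 TPM in TKO-serum to 8.34, 8.86 and 7.56 TPM in TKO-2i (log2 fold change 0.46 ± 0.10, adjusted p = 0.0028). Most of this level was assigned to Pkp3-205, a transcript annotated as retained intron, with 7 exons near the end of the gene (chr7:141088146-141090507, GRCm38). Pkp3-205 took 90.0, 78.8 and 88.3% of the gene's TPM in TKO-2i and 77.7, 72.5 and 66.5% in TKO-serum. The coding transcript Pkp3-201, with 13 exons, was at 0.091, 0 and 0.254 TPM in TKO-2i and at 0.764, 0.613 and 1.05 TPM in TKO-serum. A longer coding transcript, Pkp3-202 with 14 exons, had 0.232, 0.656 and 0.0432 TPM in TKO-2i and 0, 0.161 and 0.0678 TPM in TKO-serum, with overlap. The rise of the gene thus lay mostly in the short transcript, while Pkp3-201 was lower in each TKO-2i library than in any TKO-serum library. Transcript levels were not tested, since reads on shared exons are divided between transcripts by the estimate.

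Claudins, which seal tight junctions and set their permeability, changed in make-up more than in sum. The 23 claudins summed to 106.3 ± 0.933 TPM (SD, n = 3) in TKO-2i and 132.4 ± 2.53 TPM in TKO-serum, and Cldn6 was the main difference. Cldn6 (chr17:23679249-23682446, GRCm38), a claudin of early embryonic epithelium, fell from 36.0, 35.7 and 34.9 TPM in TKO-serum to 3.28, 3.24 and 3.75 TPM in TKO-2i. This was a 9.76-fold difference (log2 fold change -3.29 ± 0.09, adjusted p = 6.3e-08). Its share of claudin TPM was 3.11, 3.04 and 3.50% in TKO-2i against 27.8, 26.7 and 26.1% in TKO-serum. Cldn9 lies on the opposite strand, 137 bases from the end of Cldn6; although under 1 TPM in both conditions on average, it was lower too (log2 fold change -1.30 ± 0.38, adjusted p = 0.017; named after its values were seen), a call lost without TKO-serum replicate 1.

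Cldn4, the most abundant claudin, went the other way by a small step. It had 58.9, 56.7 and 56.4 TPM in TKO-2i and 48.8, 48.9 and 54.4 TPM in TKO-serum (log2 fold change 0.31 ± 0.09, adjusted p = 0.021). The call was lost when TKO-2i replicate 1, TKO-2i replicate 3 or TKO-serum replicate 2 was left out (adjusted p = 0.082 each, log2 fold change 0.22, 0.28 and 0.24). Cldn3, its neighbour 39279 bases away on chromosome 5, rose from 10.1, 9.74 and 9.96 TPM to 13.8, 13.6 and 14.7 TPM (0.67 ± 0.13, adjusted p = 0.0016). Both encode sealing claudins that bind Clostridium perfringens enterotoxin. Cldn5, the claudin of endothelial barriers, fell from 2.54 ± 0.155 to 1.04 ± 0.117 TPM (log2 fold change -1.12 ± 0.18, adjusted p = 0.00071). In all, 10 claudins were tested, 4 were higher (40%, against 31.9% of all genes tested), 4 lower (40%, against 30.6%) and 2 not called. The median over them was -0.02 in log2. The highest log2 fold change of any member was that of Cldn19 (1.87 ± 0.18, adjusted p = 3.9e-05; named after its values were seen), which had only 0.422, 0.663 and 0.430 TPM in TKO-2i and 0.359, 0.111 and 0.122 TPM in TKO-serum. Cldn7, on chromosome 11, was not called (-0.21 ± 0.09, adjusted p = 0.07). But it was called in both limma fits, with protein-coding genes only, with at least 10 counts in every sample and with a replicate block.

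**Figure D2:**
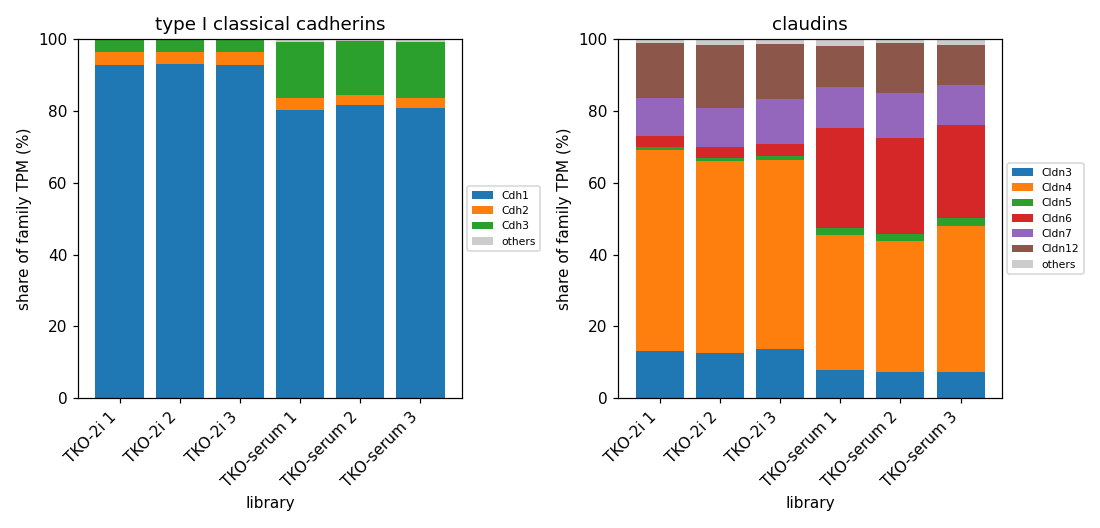
Share of the summed TPM of a gene family held by each member (vertical axis, percent) in each library, for type I classical cadherins (left) and claudins (right); gray marks the remaining genes of the family. The Cdh3 band covers 3.23 to 3.39% in TKO-2i and 14.8 to 15.6% in TKO-serum, and the Cldn6 band 3.04 to 3.50% and 26.1 to 27.8%.

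The other tight junction membrane proteins were lower or not called in TKO-2i. F11r, the junctional adhesion molecule JAM-A, had 27.9, 28.3 and 28.6 TPM in TKO-2i and 41.0, 37.6 and 37.8 TPM in TKO-serum (log2 fold change -0.31 ± 0.07, adjusted p = 0.0043). Crb3, an apical polarity protein, fell from 9.76 ± 0.803 to 6.75 ± 0.17 TPM (-0.48 ± 0.10, adjusted p = 0.0031). Marveld3, a relative of occludin, fell 3-fold, from 1.04, 1.46 and 1.16 TPM to 0.350, 0.413 and 0.331 TPM (-1.58 ± 0.15, adjusted p = 3.3e-05). Occludin itself (Ocln) had 9.83, 10.3 and 8.28 TPM in TKO-2i and 10.6, 10.7 and 10.2 TPM in TKO-serum (-0.07 ± 0.07, adjusted p = 0.4), and its CPM values overlapped. Marveld2, 43238 bases from Ocln on chromosome 13, was not called either (-0.06 ± 0.11, adjusted p = 0.65).

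The zonula occludens scaffolds, which bind claudins and occludin to actin, included Tjp1 among the abundant members. Tjp1 fell from 39.3, 48.1 and 42.8 TPM to 33.0, 40.0 and 33.4 TPM (log2 fold change -0.25 ± 0.07, adjusted p = 0.014); in TPM its ranges overlapped, and the call was lost without TKO-2i replicate 3 (adjusted p = 0.054) or TKO-serum replicate 2 (adjusted p = 0.051).

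Epcam, a homotypic adhesion molecule of epithelia and of pluripotent cells, led the order of levels in serum and not in 2i. It fell from 109.7, 114.7 and 109.4 TPM in TKO-serum to 36.7, 38.3 and 35.0 TPM in TKO-2i, a 2.82-fold difference in CPM (log2 fold change -1.50 ± 0.05, adjusted p = 1.5e-07). In TKO-serum the most abundant members were Epcam (111.3 ± 2.98 TPM, SD, n = 3), Cdh1 (107.6 ± 6.63) and Jup (85.0 ± 2.61); the first pair did not differ beyond their spread. In TKO-2i they were Cdh1 (122.4 ± 10.8 TPM), Jup (89.0 ± 4.77) and Cldn4 (57.3 ± 1.36), and Epcam came at rank 6. All members together summed to 625.2 to 693.9 TPM in TKO-2i and 814.9 to 874.8 TPM in TKO-serum.

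**Figure D3:**
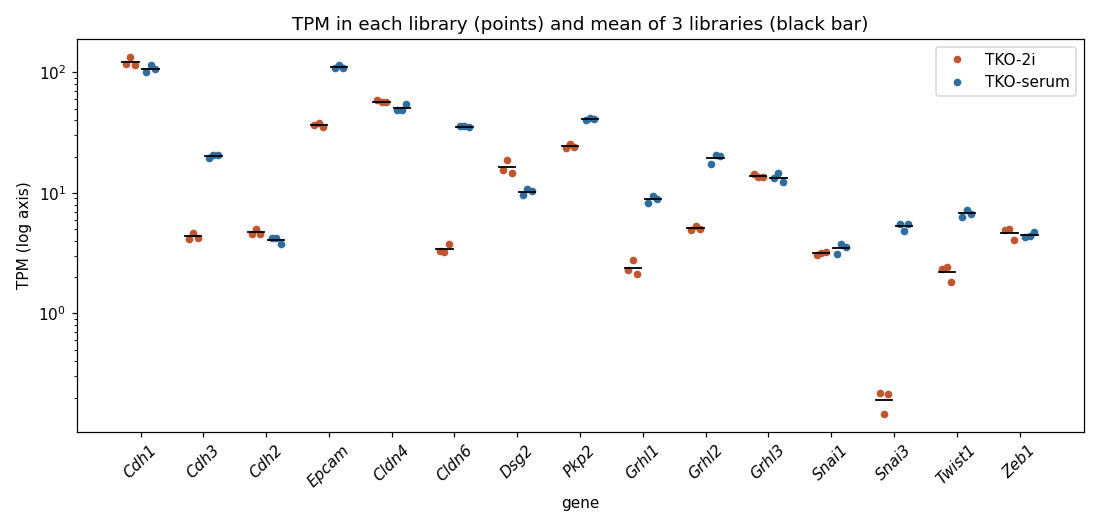
TPM (vertical log axis) of 15 members in each of the 6 libraries, with points for libraries and black bars for means of 3. The Epcam points lie at 35.0 to 38.3 TPM in TKO-2i and at 109.4 to 114.7 TPM in TKO-serum, and those of Snai3 at 0.147 to 0.217 and at 4.84 to 5.54 TPM.

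Of the epithelial transcription factors, Grhl1 and Grhl2 fell while Grhl3 and Ovol2 were not called. Grhl1 fell from 8.22, 9.34 and 8.91 TPM in TKO-serum to 2.28, 2.77 and 2.11 TPM in TKO-2i (log2 fold change -1.79 ± 0.08, adjusted p = 3.2e-07). Grhl2 (chr15:37233036-37363569, GRCm38), a regulator of Cdh1 and claudin genes in epithelia, fell from 17.5, 20.7 and 20.1 TPM to 4.95, 5.33 and 5.01 TPM (-2.07 ± 0.06, adjusted p = 4.6e-08). Grhl3, the family member of the epidermal barrier, had 14.3, 13.6 and 13.5 TPM in TKO-2i and 13.3, 14.6 and 12.3 TPM in TKO-serum (0.14 ± 0.08, adjusted p = 0.16), and was called higher without TKO-2i replicate 2 (0.22, adjusted p = 0.016). By TPM summed over all transcripts, it was therefore the most abundant Grhl gene in TKO-2i, whereas in TKO-serum Grhl2 was. The leading coding transcript of Grhl2, Grhl2-201, had 10.4 ± 1.01 TPM in TKO-serum, below Grhl3 at 13.4 ± 1.14 TPM (SD, n = 3). Ovol2, a repressor of Zeb1 in epithelia, had 4.49 ± 0.279 TPM in TKO-2i and 4.55 ± 0.444 TPM in TKO-serum (0.10 ± 0.13, adjusted p = 0.56). Ovol1, named after its values were seen, fell from 1.08, 0.899 and 0.934 TPM to 0.0627, 0.0837 and 0.075 TPM (-3.60 ± 0.22, adjusted p = 2.6e-06).

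The fall of Grhl2 was larger in its full-length transcript than the gene value shows. Grhl2-201, the coding transcript of 16 exons that spans the whole gene, had 9.47, 11.5 and 10.1 TPM in TKO-serum and 0.642, 0.448 and 0.649 TPM in TKO-2i. Grhl2-205, annotated as a processed transcript without an open reading frame, starts inside the gene and covers 9 exons (chr15:37318403-37363562, GRCm38). It had 7.23, 7.23 and 7.84 TPM in TKO-serum and 3.93, 4.47 and 4.10 TPM in TKO-2i. Grhl2-205 was thus the leading transcript in TKO-2i, with 79.4, 84.0 and 81.9% of the gene's TPM, and Grhl2-201 in TKO-serum, with 54.2, 55.5 and 50.4%. Neither share overlapped between the conditions. By estimated counts the order was the same: Grhl2-201 had 125, 76 and 121 in TKO-2i and 1515, 2304 and 1832 in TKO-serum, and Grhl2-205 had 523, 526 and 526 and then 794, 1004 and 972. The split between overlapping transcripts is an estimate and was not tested; 169 exon bases of the gene also overlap an antisense gene.

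**Figure D4:**
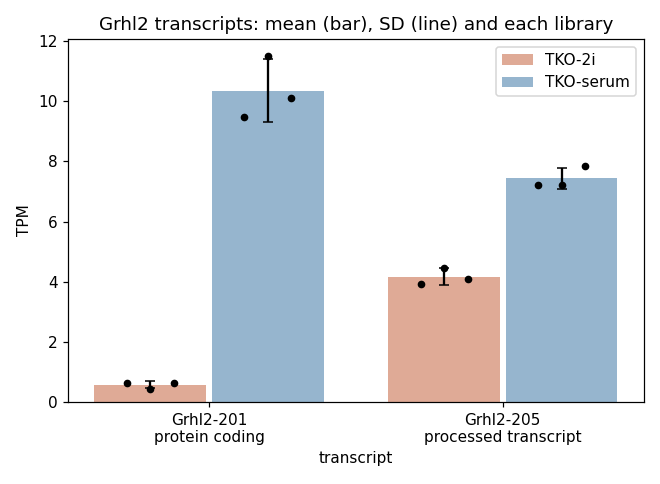
TPM (vertical axis) of the coding transcript Grhl2-201 and the processed transcript Grhl2-205 in TKO-2i and TKO-serum, with bars for means of 3 libraries, lines for SD and points for libraries. Grhl2-201 stands at 0.58 ± 0.114 TPM in TKO-2i and 10.4 ± 1.01 TPM in TKO-serum, Grhl2-205 at 4.17 ± 0.278 and 7.43 ± 0.351 TPM.

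Such a change of leading transcript was rare. Among the 34 members with at least 1 TPM in a condition, 31 had the same leading transcript in both; Grhl2 and Ocln were among the exceptions. For Ocln, Ocln-201 held 31.2 ± 7.43% (SD, n = 3) in TKO-2i and 41.2 ± 5.58% in TKO-serum, and the libraries overlapped.

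The repressors of the epithelial-mesenchymal transition were low, and their members differed. Of 7, 6 were tested, 1 was higher (16.7%, against 31.9% of all genes tested), 3 were lower (50%, against 30.6%) and 2 were not called. Of the lower genes, Snai3 was not tested with at least 10 counts in every sample. Snai1, the Snail factor that represses Cdh1, had 3.08, 3.16 and 3.25 TPM in TKO-2i and 3.10, 3.74 and 3.59 TPM in TKO-serum (log2 fold change 0.00 ± 0.11, adjusted p = 0.98). Snai2 (Slug) had 0.894, 1.37 and 1.11 TPM in TKO-2i and 0.866, 0.864 and 0.903 TPM in TKO-serum, short of the threshold (0.47 ± 0.19, adjusted p = 0.058) but past it without TKO-2i replicate 1 (0.58, adjusted p = 0.027). Snai3, the least studied Snail factor, showed the lowest log2 fold change of the repressors. It fell from 5.49, 4.84 and 5.54 TPM in TKO-serum to 0.217, 0.147 and 0.215 TPM in TKO-2i, a 24.4-fold difference (-4.61 ± 0.21, adjusted p = 4.2e-07). It has a single transcript, and none of its exon bases is shared with another gene.

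Twist1, a basic helix-loop-helix factor of mesoderm and neural crest, fell from 6.32, 7.20 and 6.74 TPM in TKO-serum to 2.33, 2.45 and 1.81 TPM in TKO-2i (log2 fold change -1.46 ± 0.12, adjusted p = 1.6e-05). Zeb2 was low in serum and lower in 2i, with 0.509, 0.765 and 0.495 TPM against 0.0852, 0.191 and 0.232 TPM (-2.48 ± 0.24, adjusted p = 3.2e-05; -1.71 with counts scaled from TPM); its exons overlap those of its antisense gene Zeb2os over 653 bases. Zeb1, the main Zeb factor in these cells, had 4.95, 5.03 and 4.04 TPM in TKO-2i and 4.34, 4.41 and 4.74 TPM in TKO-serum. In CPM it was called higher in TKO-2i (0.32 ± 0.08, adjusted p = 0.0071), but with counts scaled from TPM the estimate was 0.15 (adjusted p = 0.18), and the TPM ranges overlapped. Zeb1-210, a processed transcript shorter than the coding Zeb1-201, had 0.306, 0 and 0 TPM in TKO-2i and 0.702, 0.492 and 0.650 TPM in TKO-serum. The coding transcript had 3.81 ± 0.518 TPM (SD, n = 3) in TKO-2i and 3.00 ± 0.468 TPM in TKO-serum, with libraries that overlapped.

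Other genes of the same structures gave context. Catenins and adherens junction partners numbered 15, of which 13 were tested. Of these, 4 were higher (30.8%, against 31.9% of all genes tested) and 6 lower (46.2%, against 30.6%), and their median fold change in log2 was -0.09. Beta-catenin (Ctnnb1), the most abundant, had 311.3, 345.2 and 323.8 TPM in TKO-2i and 377.1, 415.8 and 392.4 TPM in TKO-serum (-0.21 ± 0.04, adjusted p = 0.0024). Nectin1 (1.55 ± 0.06) and Ctnnd2 (1.44 ± 0.15) had the highest fold changes in log2, and Ctnnal1 (-1.14 ± 0.05) and Nectin4 (-1.03 ± 0.11) the lowest. Among 25 other tight junction and polarity proteins, 8 were higher (32%, against 31.9% of all genes tested) and 12 lower (48%, against 30.6%), with a median of -0.12. Cingulin (Cgn), which links tight junctions to myosin, fell from 10.3, 11.6 and 11.2 TPM to 1.71, 1.92 and 1.64 TPM (-2.57 ± 0.06, adjusted p = 2.1e-08), and its paralogue Cgnl1 was lower as well (-1.91 ± 0.12). Ildr1, an angulin of tricellular junctions, rose from 9.08, 9.41 and 9.18 TPM to 36.2, 38.9 and 37.4 TPM (2.13 ± 0.06, adjusted p = 6.3e-08), Magi3 rose too (1.01 ± 0.09), and Jam2 was the most abundant (148.8 ± 12.5 against 117.0 ± 6.29 TPM). The 3 other desmosome proteins were all lower (100%, against 30.6% of all genes tested), whereas Dsg2 rose. Among these 3 were Evpl (-1.33 ± 0.10) and Perp (-0.92 ± 0.08).

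Gap junction connexins couple cells rather than seal them. Of 13, 9 were tested, 5 were higher (55.6%, against 31.9% of all genes tested) and 3 lower (33.3%, against 30.6%). Their median in log2 was 1.07. Gja1 (connexin 43) fell from 35.4, 40.6 and 38.0 TPM to 10.1, 10.2 and 10.5 TPM (-1.80 ± 0.06, adjusted p = 8.9e-08). The TGF-beta ligands and receptors numbered 6, with 5 tested, 3 higher (60%, against 31.9% of all genes tested) and 0 lower (against 30.6%). The 3 higher genes stayed under 1 TPM in both conditions. In the same list, 0.20 ± 0.10 was the log2 fold change of Tgfbr1, the most abundant (adjusted p = 0.13).

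Of 18 epithelial genes outside the junction, 17 were tested; 12 of 17 (70.6%, against 30.6% of all genes tested) were lower and 4 (23.5%, against 31.9%) higher, with a median of -0.97. Esrp1, a splicing factor of epithelia, fell from 24.6, 27.5 and 26.0 TPM to 0.684, 0.806 and 0.624 TPM (log2 fold change -5.09 ± 0.08, adjusted p = 5.8e-09), and Lamb3 was lower (-1.58 ± 0.13). Spint2, a protease inhibitor and the most abundant of the list, fell from 189.0 ± 2.67 to 99.8 ± 2.89 TPM. The keratin Krt8 (1.78 ± 0.10) and Spint1 (0.97 ± 0.06) rose. The other keratins of the list, named after their values were seen, were lower: Krt7 (-1.75 ± 0.17), Krt18 (-0.97 ± 0.08) and Krt19 (-1.54 ± 0.16). Mesenchymal genes were mixed: of 16, 14 were tested, 5 were higher (35.7%, against 31.9% of all genes tested) and 6 lower (42.9%, against 30.6%). Their median was -0.27. Vimentin (Vim) rose from 93.4, 96.1 and 90.6 TPM to 148.4, 143.1 and 157.1 TPM (0.71 ± 0.09, adjusted p = 0.00013), fibronectin (Fn1) rose from 160.1 ± 10.8 to 235.1 ± 44.0 TPM, and Axl rose (1.29 ± 0.11). Among the 6 lower genes of this list, Tagln fell from 5.86 ± 0.524 to 0.251 ± 0.111 TPM. Acta2 fell from 510 counts over the TKO-serum libraries to 1 count over those of TKO-2i. This was a ratio of 487 after scaling to library size (95% Clopper-Pearson interval 87.0 to 19300, counting error only).

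The E-box CACCTG, or CAGGTG on the other strand, is the core motif bound by Snail and Zeb factors, so promoter sequences from RefSeq (GRCm38.p6) were searched for it in the 250 bases before each annotated start. Of the 82 members, 49 had promoter sequences. The E-box occurred in 16 of 68 promoters of members (23.5%), against 17.2% of all 32851 promoters, and in 13 of the 49 genes (26.5%) against 19.4% of all genes in the table. Of these 13 genes, 4 were lower in TKO-2i (Cldn6, Crb3, Epcam and F11r), 1 was higher (Cldn4), 6 were not called and 2 were not tested, beside 25 of 50 tested members and 30.6% of all genes tested being lower. The Grhl motif AACCGGTT, which reads the same on both strands, occurred in 0 of 68 promoters of members and in 0.116% of all promoters. A match is a description of the sequence and says nothing of binding. The stretches below are shown for called members because they carry the E-box, in capitals, outside any annotated exon; each is written 5′ to 3′ on the strand of the gene. They come from chr17:87635765-87635824 and chr17:87635933-87635978 (plus strand, 187 and 19 bases before the start of Epcam), chr1:171437412-171437471 (plus strand, 122 bases before F11r), chr17:57062056-57062115 (plus strand, 118 bases before the nearer start of Crb3) and chr5:134946935-134946975 (minus strand, 14 bases before Cldn4).
Epcam, distal: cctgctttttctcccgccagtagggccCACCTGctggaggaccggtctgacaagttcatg
Epcam, proximal: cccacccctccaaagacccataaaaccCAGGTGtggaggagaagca
F11r: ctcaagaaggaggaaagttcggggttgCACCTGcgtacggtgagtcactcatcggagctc
Crb3: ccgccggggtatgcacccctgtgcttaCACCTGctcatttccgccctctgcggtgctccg
Cldn4: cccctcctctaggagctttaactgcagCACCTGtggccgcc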

How the data were processed

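The authors deposited per-transcript estimated counts and TPM for each sample, on mm10 per the labels; the quantifier is not given in the sources used here. Of 136288 transcripts, 136100 (99.86%) matched GENCODE M21 and were summed per gene; at most 0.0643% of the deposited estimated counts of a sample were unmatched. Rounded counts were tested with edgeR 4.0.16 (filterByExpr, TMM, quasi-likelihood test, condition only, Benjamini-Hochberg over all genes tested; SE is the log2 fold change over the root of F). DESeq2 1.42.0 and limma 3.58.1 were alternatives, beside other filters, scalings, protein-coding genes only, a replicate block and leaving out each sample. The test was checked on simulated counts. CPM used TMM library sizes and served comparisons between samples; the deposited TPM served comparisons between genes. The quantifier's strand setting is not given in the sources used here, so genes sharing exon bases with another gene are uncertain. Which of the sequencing pools held each library is not given either.

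The members and lists were chosen with earlier results of these data known. Named members were 10 defining genes (Cdh1, Cdh2, Epcam, Snai1, Snai2, Zeb1, Zeb2, Twist1, Grhl2 and Ovol2) and, in each role, the 3 largest rises and falls among called members with a mean of at least 1 TPM in a condition, and the 2 of highest mean TPM; context lists gave 2 rises, 2 falls and the most abundant gene. Results for some genes are not reported here.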

Additional observations from a re-analysis of the deposited data

How the results depend on the processing

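Of the 33 named members tested, 21 kept their side of the threshold with no reversed sign under each of the 15 alternatives that tested them; Cdh9 and Snai3 were not tested with at least 10 counts in every sample, and Snai1, at 0.00 and not called, has no sign to reverse and lay near 0 throughout. Cdh24 and Cdh23 lost their calls in most alternatives; limma on TPM lost Cdh1, Cdh2 and Zeb1, and the cause was not tested. Signs reversed for Cdh23 (0.12 with length-scaled TPM counts, 0.07 in limma on log2(TPM + 0.1)) and for the uncalled Ovol2 (-0.02 in limma on log2(TPM + 1) and on log2(TPM + 0.1)). Members called higher, 11, numbered 7 in limma on log2(TPM + 1) and 6 on log2(TPM + 0.1), and 10 to 13 when a sample was left out; members called lower, 25, numbered 17 to 33 over all alternatives and 23 to 25 when a sample was left out. Members past 4-fold lower, 13, numbered 20 with no filter, where more genes of low level are tested. They numbered 4 with at least 10 counts in every sample, which removes genes near 0 in a condition. With length-scaled TPM counts they numbered 10. In limma on log2(TPM + 1) and log2(TPM + 0.1), which change the scale, the pseudocount and the test at once, they numbered 2 and 6. When a sample was left out they numbered 12 or 13. The log2 difference in the Cdh2 to Cdh1 ratio ranged from -0.03 (without TKO-serum replicate 3) to 0.10 (without TKO-serum replicate 1) and was 0.03 by CPM. DESeq2 size factors moved the median of all genes by -0.02. By estimated counts, 32 members had the same leading transcript in both conditions, against 31 by TPM.

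The main test did not pair samples by replicate number. Deviations of same-numbered samples correlated at 0.222, 0.303 and 0.003, and those of the other pairs at -0.308 to 0.117. Of the 6 samples, 5 correlated best with the sample of their own number, and the cause was not tested. With a replicate block, 14 members were higher, 26 lower and 13 past 4-fold lower, the 36 called members stayed called, and Cldn12, Cldn7, Dsp and Jup were called too. Depth limits the genes under about 0.1 CPM, where a few counts decide the value.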
